A study of Homo sapiens with 12 samples.

Results

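The genes described here are 32 genes of the p53 pathway, taken by symbol from a list of p53 target and feedback genes, out of 62069 gene identifiers in the count table. All 32 were matched to 1 identifier each. All 32 passed the filter on low counts, as did 13248 genes in all. The list was not drawn from measured values of this study, but it was chosen with earlier results on the same libraries known, so it is a description of a pathway and not a blind test of it.

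The protein p53 is a transcription factor that is held low in resting cells by the ubiquitin ligase MDM2 and its partner MDM4, and that accumulates after DNA damage or oncogene activation. It then binds DNA at paired half-sites and switches on genes that stop the cell cycle, repair DNA, shift metabolism or kill the cell, and also genes such as MDM2 and PPM1D that switch p53 off again. In fibroblasts, lasting activation of a RAS oncogene is known to engage p53 and to end in senescence, a stable arrest with a secretory programme.

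The cells were IMR90 ER:RAS, a fetal lung fibroblast line with a RAS oncogene joined to an oestrogen receptor fragment, which 4-hydroxytamoxifen (4OHT) turns on. Every group carried the ER:RAS construct, was at passage 15 and was collected at day 6 after growth in DMEM with 10% FBS, with the medium changed at day 4. The DMSO group (libraries 17 to 20, the non-senescent cells of the design text) received solvent, the 4OHT group (libraries 21 to 24, the senescent cells) received 100 nM 4OHT, and the 4OHT+3DA group (libraries 29 to 32) received 4OHT and 3-deazaadenosine (3DA), an adenosine analogue that inhibits S-adenosylhomocysteine hydrolase. The sources used here do not give the dose and start of 3DA. No group received 3DA alone and no cells lacking ER:RAS received 4OHT, so effects of 4OHT itself and of RAS cannot be told apart. Nothing in the labels ties the 4 libraries of a group to separate cultures, so p-values measure the spread between libraries, which may be technical. RNA came from whole cultures, where fewer cells of a type and less RNA per cell cannot be told apart.

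The promoters of the 32 genes were searched for the p53 half-site, the palindromic decamer of which a full p53 response element holds a pair. Windows of 300 bases, from 250 before to 50 after the annotated start, were read from RefSeq (GRCh38.p14, which is not the authors' build) for 27 of the 32 genes. A half-site was found in 6 of the 27 genes (22.2%), against 2202 of 27305 genes in the whole table (8.06%), and in 6 of 39 windows (15.4%), against 6.63% of all windows. Both strands read alike because the decamer is palindromic. The 6 stretches are shown because they are the places where the letters p53 reads lie next to a start site in this list, with the half-site in capitals.
DDB2: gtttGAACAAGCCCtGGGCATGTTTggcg
SESN1: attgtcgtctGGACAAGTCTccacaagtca
FDXR: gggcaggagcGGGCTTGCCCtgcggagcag
AEN: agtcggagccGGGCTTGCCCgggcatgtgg
PLK2: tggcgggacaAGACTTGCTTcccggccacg
RPS27L: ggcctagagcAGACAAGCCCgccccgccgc
The DDB2 stretch (chr11:47214975-47215003, plus strand) was the 1 of the 6 with 2 half-sites, which are separated by a single base. The SESN1 stretch lies at chr6:109009018-109009047 (minus strand), FDXR at chr17:74872986-74873015 (minus), AEN at chr15:88621296-88621325 (plus), PLK2 at chr5:58460199-58460228 (minus) and RPS27L at chr15:63157517-63157546 (minus). A match is a description of the letters and no measure of binding, and response elements outside these windows were not searched. None of these 6 genes passed the test for 4OHT against DMSO, though PLK2 (−0.31) and RPS27L (−0.28) did when scaled by library totals and SESN1 (0.24) did with a correction for transcript GC content. PLK2 also passed when only those 8 libraries were fitted (−0.16, adjusted p = 0.020). SESN1 and FDXR rose in both comparisons of the 4OHT+3DA group, though the rise of SESN1 against 4OHT was not called with the GC correction (0.14, adjusted p = 0.20). RPS27L fell with 4OHT+3DA against DMSO (−0.26, adjusted p = 0.044), a call lost in 9 alternatives. DDB2, AEN and PLK2 passed the test in neither of these comparisons, though PLK2 did against 4OHT with library totals (0.22).

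Total counts ran from 9.45 to 19.3 M reads per library, with group means of 11.3, 13.8 and 17.1 M for DMSO, 4OHT and 4OHT+3DA. Library 31 of the 4OHT+3DA group stood apart. The trend of its log2 CPM over transcript GC content spanned 0.77, against 0.03 to 0.27 in the other 11 libraries. Among the 32 genes it was the highest of its group in 15, with a median GC of 41.4%, and the lowest in 11, with a median GC of 56.9%. Neither count alone sets it apart: library 24 was the highest of the 4OHT group in 16 genes. Library 29 was the lowest of the 4OHT+3DA group in 12. Results that rest on library 31 are given with and without it. The share of reads from mitochondrial mRNAs was 2.25% ± 0.0595 with DMSO, 2.995% ± 0.0958 with 4OHT and 2.81% ± 0.142 with 4OHT+3DA. Fibroblast markers were all measured, with a summed level of 14672 to 16340.4 CPM with DMSO, 9934 to 11145 with 4OHT and 9631 to 10869 with 4OHT+3DA. Of the 12 epithelial markers 4 were tested, with summed levels of 76.9 to 95.2 CPM with DMSO, 9.85 to 14.1 with 4OHT and 9.44 to 12.3 with 4OHT+3DA, and SFTPC was at 0. Of 9 endothelial and 12 immune markers, 2 and 1 were tested, with PECAM1, CDH5, CD3E, CD3D, NKG7 and TYROBP at 0. Summed endothelial levels were 5.05 to 7.54 CPM with DMSO, 5.33 to 7.65 with 4OHT and 1.74 to 3.19 with 4OHT+3DA. The immune sums were 0.440 to 1.57, 1.93 to 2.86 and 1.73 to 3.31 CPM in the same order. With 4OHT+3DA, TEK was below DMSO (1.37 against 5.44 CPM) and CSF1R above it (2.10 against 0.546 CPM). The part of these shifts in the results below was not tested.

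Levels are given as CPM, counts per M reads of the library's effective size, and are compared only within a gene because CPM is not scaled to gene length. Means are ± SD with n = 4. A gene is said to rise or fall where its adjusted p was under 0.05 in edgeR's quasi-likelihood test with Benjamini-Hochberg adjustment over all 13248 genes. All adjusted p-values below are from that test unless another is named. Each pair of the 3 comparisons shares a group of libraries, so the values of a gene in different comparisons are not independent of each other.

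CDKN1A, which encodes the CDK inhibitor p21 and is the best known p53 target, is not among the 32 genes and is given first as a reference for them. It was at 1011 ± 22.5 CPM with DMSO, 2681 ± 75.1 CPM with 4OHT and 1603 ± 189 CPM with 4OHT+3DA. Its log2 fold changes were 1.41 (SE 0.070) for 4OHT against DMSO and −0.74 (SE 0.069) for 4OHT+3DA against 4OHT. The 3 groups did not overlap, with DMSO lowest and 4OHT highest. All levels here are those of mRNA, and binding of p53 to its targets was not measured.

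**Figure D1:**
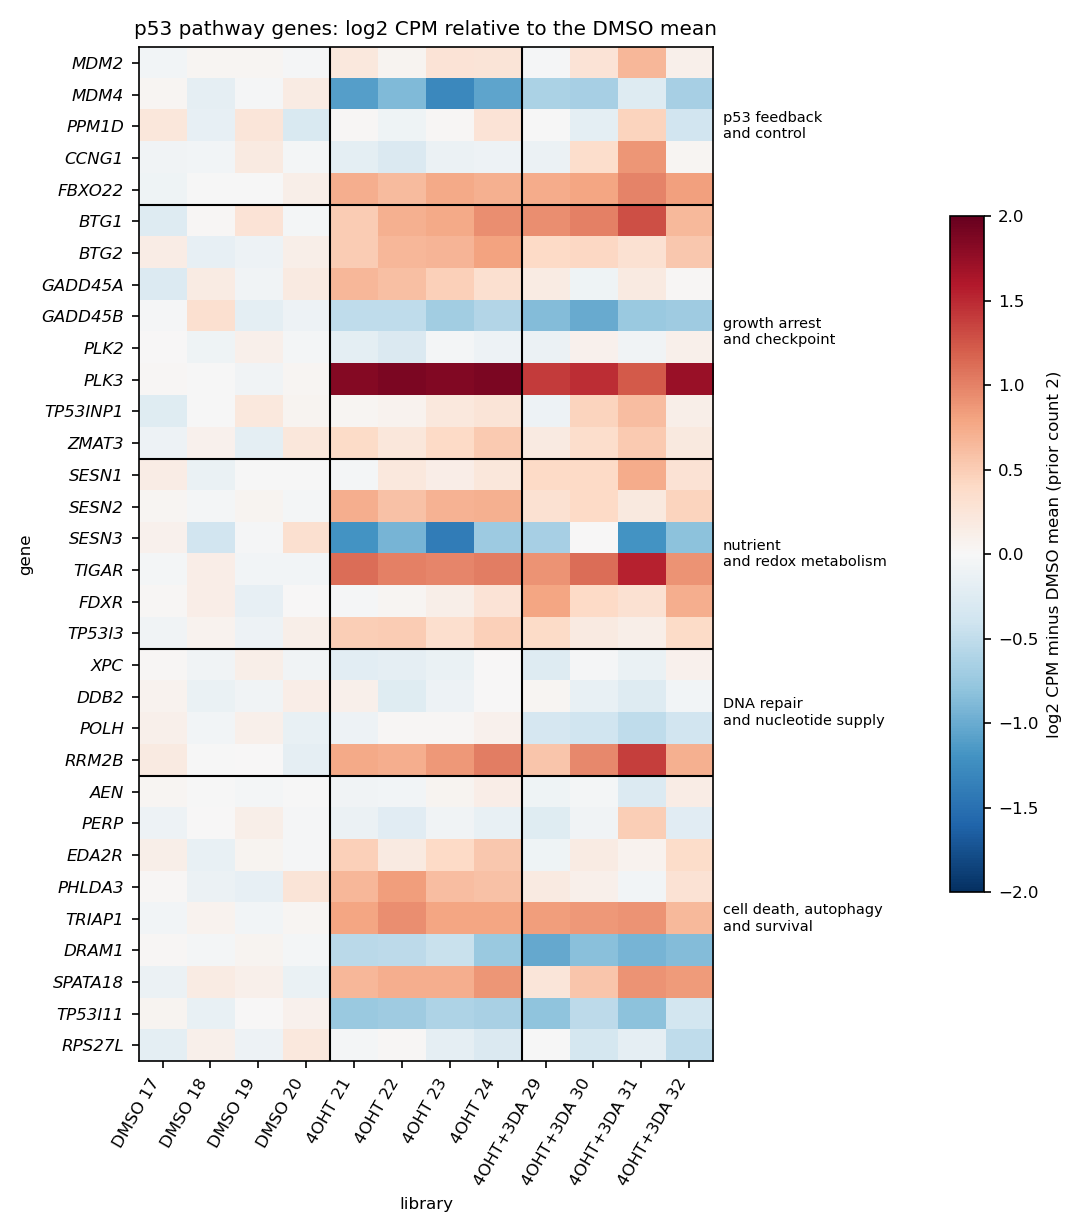
Level of each of the 32 genes (rows, grouped by role) in each of the 12 libraries (columns), as log2 CPM minus the mean of the DMSO libraries, with red for higher and blue for lower. PLK3 is the darkest red row in the 4OHT columns and in libraries 29, 30 and 32. In library 31 TIGAR is darker (1.54 against 1.23 for PLK3). MDM4 is blue in all 4OHT and 4OHT+3DA columns, and so is SESN3 except in library 30, where it is near the DMSO mean (0.00097). Library 31 differs from its neighbours in rows such as CCNG1 and PERP.

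With 4OHT against DMSO, 14 of the 32 genes rose and 5 fell, which is 59.4% of them, against 52.0% of all genes tested. By direction, 43.8% of the 32 rose, against 26.5% of all genes, and 15.6% fell, against 25.5%. In 21 genes (65.6%) the 4OHT and DMSO libraries did not overlap, against 51.5% of all genes. The median log2 fold change of the 32 was 0.14, against −0.011 for all genes. These shares depend on the scaling. Scaled by library totals and not by TMM factors, 12 of the 32 rose and 10 fell, and the median was −0.017. The median of all genes moved to −0.17, and 2387 of the 13248 genes rose while 4723 fell, in place of 3511 and 3378. The median of the 32 lay above that of all genes under both scalings.

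With 4OHT+3DA against 4OHT, 4 of the 32 genes rose and 6 fell. This is 31.2%, near the 26.9% of all genes. The shares by direction were 12.5% higher and 18.8% lower, against 14.4% and 12.4% of all genes. The 2 groups did not overlap in 10 genes (31.2%), against 25.0% of all genes. The median log2 fold change was −0.031, against 0.0051 for all genes. With library totals it was 0.028, against 0.065 for all genes. There 5 genes rose, 6 fell and all genes split into 2535 higher and 1207 lower, in place of 1909 and 1649.

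With 4OHT+3DA against DMSO, 14 genes rose and 7 fell. This is 65.6%, against 51.5% of all genes. The shares by direction were 43.8% higher and 21.9% lower, against 27.0% and 24.6% of all genes, and the groups did not overlap in 17 genes (53.1%), against 44.7%. The median log2 fold change was 0.20, against 0.0086 for all genes. With library totals 11 genes rose, 7 fell and the median was 0.10, against −0.088 for all genes. All genes split there into 2801 higher and 4023 lower, in place of 3572 and 3253.

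**Figure D2:**
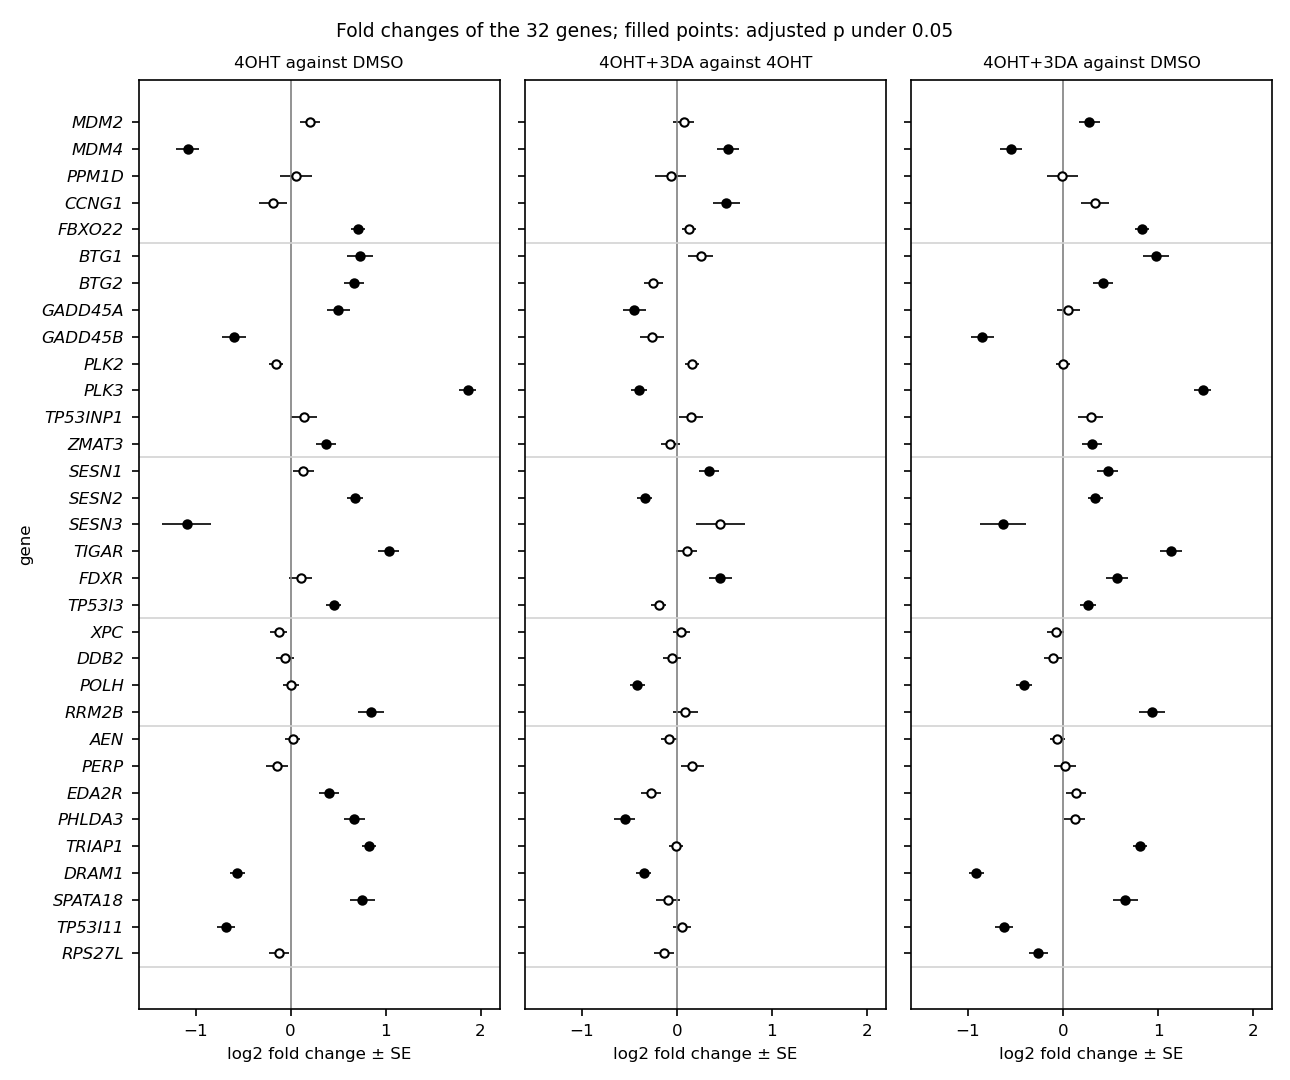
Log2 fold change (x axis) with its SE (bars) of each of the 32 genes (y axis, in the order of roles, lines between roles) in the 3 comparisons, with filled points where the adjusted p was under 0.05. PLK3 has the highest value of the first panel (1.87), and the second panel holds 10 filled points, of which 4 lie above 0 and 6 below.

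The first role is feedback on p53 itself: MDM2, MDM4, PPM1D, CCNG1 and FBXO22. MDM2 is the ligase that sends p53 to degradation and is itself a p53 target. Its level was 74.9, 80.1, 79.7 and 76.8 CPM in the DMSO libraries. The 4OHT libraries held 90.2, 81.2, 94.0 and 93.3 CPM, and the 4OHT+3DA libraries 76.9, 93.7, 123 and 83.7 CPM. The 4OHT libraries all lay above the DMSO libraries, though narrowly, and the 4OHT+3DA libraries spread across both groups with library 31 at the top. The log2 fold change for 4OHT against DMSO was 0.20 (SE 0.11) and missed the threshold (adjusted p = 0.13). It was 0.07 (SE 0.11) for 4OHT+3DA against 4OHT, adjusted p = 0.66.

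MDM2 was called higher with 4OHT+3DA than with DMSO (0.28, SE 0.11, adjusted p = 0.041). That call was lost without any 1 of libraries 17, 18, 19, 20, 30 or 31, with 0.13 (adjusted p = 0.16) without library 31. Library totals, limma-voom, a fit of only the 8 libraries compared and a threshold of 0.01 also lost it. So did the GC correction without library 31. Without library 31 the rise with 4OHT against DMSO passed the test at nearly the same size (0.21, SE 0.070, adjusted p = 0.015), and the value against 4OHT turned to −0.08. The rise with 4OHT also passed when only the 8 libraries of that comparison were fitted (0.19, adjusted p = 0.0089) and with the GC correction (0.30, adjusted p = 0.00068). With the GC correction and without library 31, MDM2 was lower with 4OHT+3DA than with 4OHT (−0.18, adjusted p = 0.044).

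MDM4, which binds and silences p53 without being a strong ligase, fell. It was at 39.3, 34.0, 37.8 and 42.9 CPM with DMSO, at 17.9, 20.6, 15.7 and 18.5 CPM with 4OHT, and at 24.8, 24.1, 32.2 and 24.3 CPM with 4OHT+3DA. The 3 groups did not overlap, with 4OHT lowest and 4OHT+3DA between. The fall with 4OHT was 2.12-fold (log2 fold change −1.09, SE 0.12, adjusted p = 2.5e-07). Relative to 4OHT, MDM4 rose with 4OHT+3DA (0.54, SE 0.12, adjusted p = 0.0024), and it stayed below DMSO (−0.55, SE 0.11, adjusted p = 0.00050). Without library 31, its highest library, the rise was 0.43 (SE 0.11, adjusted p = 0.0040).

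PPM1D encodes the phosphatase WIP1, which removes activating phosphates from p53 and its kinases. It was at 19.2, 14.7, 19.5 and 13.3 CPM with DMSO, 16.8, 15.5, 16.6 and 19.9 CPM with 4OHT, and 16.4, 14.3, 22.5 and 12.6 CPM with 4OHT+3DA. The groups overlapped throughout, and the log2 fold changes were 0.06, −0.06 and −0.01 with SEs of 0.16 to 0.17 (adjusted p = 0.80, 0.81 and 0.97). Without library 31 the values of the 4OHT+3DA group were −0.25 against 4OHT and −0.19 against DMSO, and neither passed the test.

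CCNG1, cyclin G1, a p53 target that recruits a phosphatase to MDM2, and FBXO22, part of a ubiquitin ligase that acts on p53, differed from each other. FBXO22 rose from 63.2 ± 3.72 CPM with DMSO to 103 ± 3.53 CPM with 4OHT (log2 fold change 0.71, SE 0.074, adjusted p = 1.5e-07) and stood at 113 ± 8.55 CPM with 4OHT+3DA. Exons of NRG4 on the other strand cover 16.2% of its exon length in GENCODE 29 (GRCh38), and the library kit does not mark strand, so reads of this pair cannot be told apart there. CCNG1 was at 278, 281, 332 and 284 CPM with DMSO, 254, 239.9, 269 and 272 CPM with 4OHT, and 269, 373, 542 and 302 CPM with 4OHT+3DA. Its rise with 4OHT+3DA against 4OHT (0.52, SE 0.15, adjusted p = 0.012) was 0.28 (SE 0.085, adjusted p = 0.017) without library 31, the highest. With the GC correction as well it was 0.15 (SE 0.067, adjusted p = 0.12). Its value for 4OHT against DMSO (−0.18, adjusted p = 0.31) passed with library totals (−0.34) and when only those 8 libraries were fitted (−0.19, adjusted p = 0.0086). CCNG1 also has a processed pseudogene copy, CCNG1P1, with which reads may be shared.

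The second role is arrest and checkpoint signalling, with BTG1, BTG2, GADD45A, GADD45B, PLK2, PLK3, TP53INP1 and ZMAT3. With 4OHT, 5 of the 8 rose and 1 fell, where 26.5% of all genes tested rose and 25.5% fell. PLK3, a stress-activated polo-like kinase that is also known as an immediate early gene, had the largest change of the 32 with 4OHT. It was at 42.4, 41.4, 39.7 and 42.6 CPM in the DMSO libraries and at 148, 153, 150.3 and 154 CPM in the 4OHT libraries. In the 4OHT+3DA libraries it was at 110.1, 115, 97.3 and 138 CPM. The 3 groups did not overlap, with DMSO lowest and 4OHT highest. The rise with 4OHT was 3.64-fold (log2 fold change 1.87, SE 0.090, adjusted p = 1.6e-12). PLK3 was lower with 4OHT+3DA than with 4OHT (−0.39, SE 0.085, adjusted p = 0.0021) and 2.77-fold above DMSO (1.47, SE 0.089).

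GADD45A and GADD45B, stress-induced partners of the MAP kinase kinase kinase MEKK4, went in opposite directions with 4OHT. GADD45A, whose full values were chosen for display after they were seen, as were those of SESN1, SESN2, FDXR, POLH, RRM2B, PHLDA3, DRAM1, CCNG1 and PERP, was at 14.1, 19.2, 16.2 and 19.4 CPM with DMSO and at 27.1, 26.0, 23.9 and 21.3 CPM with 4OHT. With 4OHT+3DA it was at 19.2, 16.0, 19.4 and 17.3 CPM. The 4OHT libraries lay above both other groups, which overlapped. GADD45A rose with 4OHT (0.50, SE 0.12, adjusted p = 0.0018) and was lower with 4OHT+3DA than with 4OHT (−0.45, SE 0.12, adjusted p = 0.0092), and the value against DMSO was 0.06 (SE 0.12, adjusted p = 0.73). GADD45B fell from 20.3 ± 3.27 CPM to 13.5 ± 0.798 CPM with 4OHT (−0.59, SE 0.12) and was at 11.3 ± 1.052 CPM with 4OHT+3DA, below DMSO by 0.85 on the log2 scale.

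BTG1 and BTG2, antiproliferative adaptors of the mRNA deadenylation machinery, both rose with 4OHT. BTG1 went from 16.7 ± 2.53 to 27.7 ± 3.42 CPM (0.73, SE 0.14) and was at 33.1 ± 6.05 CPM with 4OHT+3DA. BTG2 went from 18.4 ± 1.98 to 29.2 ± 2.47 CPM (0.67, SE 0.10) and was at 24.6 ± 1.69 CPM with 4OHT+3DA. Between 4OHT and 4OHT+3DA the BTG1 value was 0.25 (SE 0.13, adjusted p = 0.17) and the BTG2 value −0.25 (SE 0.10, adjusted p = 0.075), and each passed the test without library 32 (0.35, adjusted p = 0.046, and −0.29, adjusted p = 0.049). BTG2 also passed with DESeq2 (−0.25, DESeq2 adjusted p = 0.048). Without library 31 the BTG1 value was 0.14 (adjusted p = 0.43). LINC01619, on the same strand, covers 10.4% of the BTG1 exon length, and BTG1 has a processed pseudogene, BTG1P1.

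ZMAT3, an RNA-binding protein that acts in tumour suppression downstream of p53, rose with 4OHT from 43.1 ± 5.69 to 56.0 ± 4.63 CPM (0.38, SE 0.10, adjusted p = 0.0049) and was at 53.4 ± 5.94 CPM with 4OHT+3DA. That value was 0.31 above DMSO (SE 0.10, adjusted p = 0.018), a call lost without library 17 (0.27) or 19 (0.24). With library totals the ZMAT3 value was 0.22 for 4OHT against DMSO (adjusted p = 0.069) and 0.21 for 4OHT+3DA against DMSO (adjusted p = 0.085). PLK2, a polo-like kinase, and TP53INP1, which promotes p53-dependent arrest and autophagy, passed the test in no comparison. PLK2 was at 221 ± 12.3, 198 ± 14.9 and 221 ± 17.1 CPM in the 3 groups. With library totals it passed for 4OHT against DMSO (−0.31) and for 4OHT+3DA against 4OHT (0.22). It also passed for 4OHT against DMSO when only those 8 libraries were fitted (−0.16, adjusted p = 0.020). TP53INP1 was at 35.0 ± 4.49, 38.6 ± 2.86 and 42.8 ± 9.42 CPM, and its value for 4OHT+3DA against DMSO (0.29, SE 0.13, adjusted p = 0.070) passed without library 19, 29 or 32 (0.35 to 0.41) and was 0.17 (adjusted p = 0.22) without library 31. With no filter on low counts TP53INP1 also passed in that comparison. With the GC correction TP53INP1 passed for 4OHT against DMSO (0.24, adjusted p = 0.032), and without library 31 as well (adjusted p = 0.031).

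**Figure D3:**
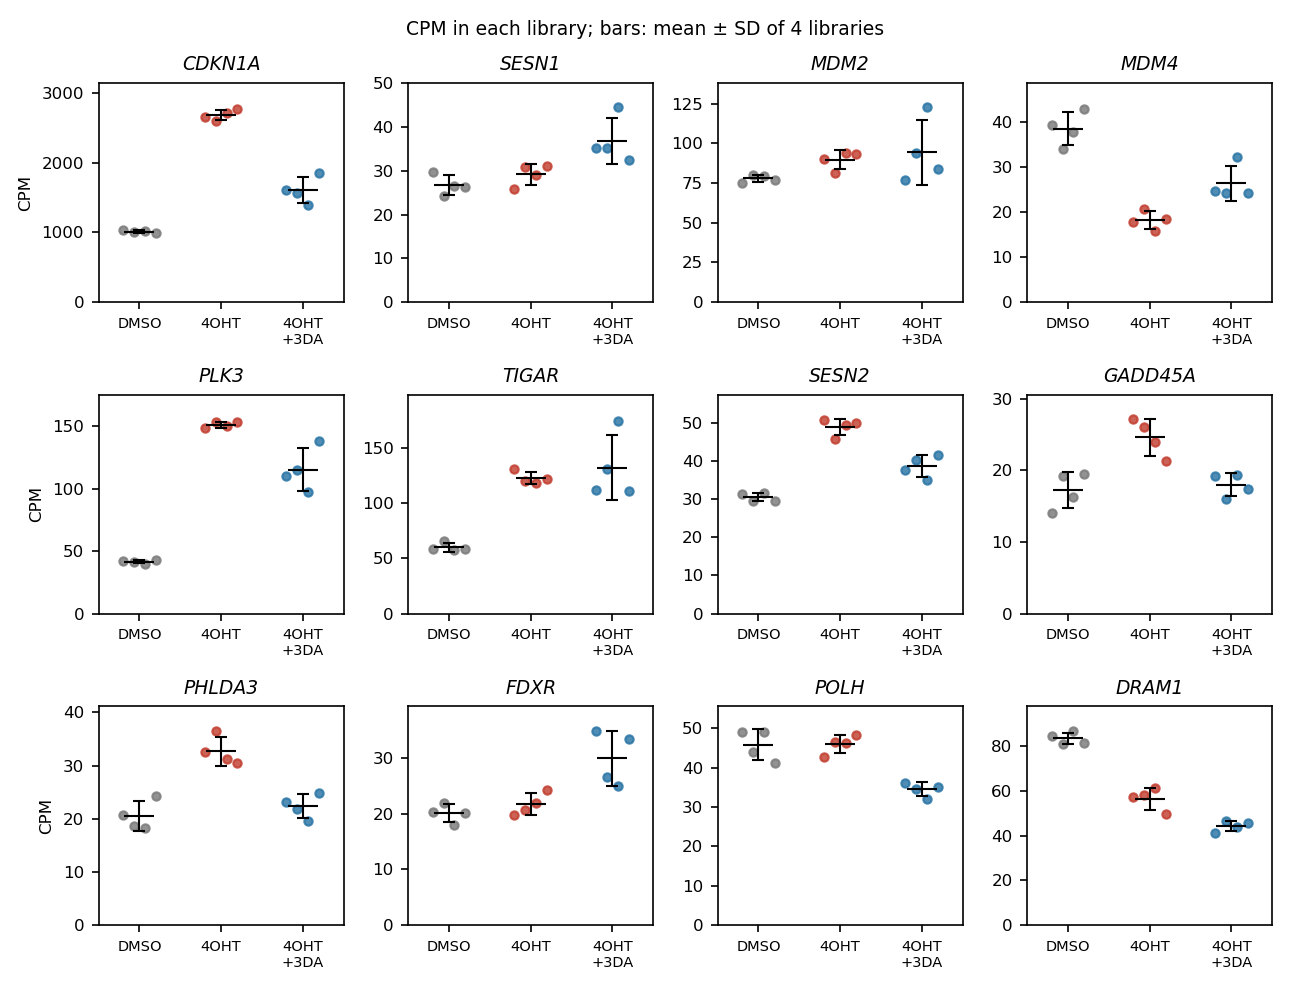
CPM (y axis, from 0) of 12 genes in the DMSO, 4OHT and 4OHT+3DA libraries (x axis); points are libraries and bars are the mean ± SD of 4. MDM4 is lowest with 4OHT, CDKN1A, PLK3, SESN2, GADD45A and PHLDA3 are highest with 4OHT, SESN1 and FDXR are highest and POLH lowest with 4OHT+3DA, and DRAM1 steps down across the groups.

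The third role is nutrient and redox metabolism, with 6 genes. The sestrins SESN1, SESN2 and SESN3 restrain the growth kinase mTORC1 and support antioxidant defence. Their mRNAs showed 3 different patterns. SESN2, the sestrin that senses leucine, was at 31.4, 29.6, 31.7 and 29.7 CPM with DMSO, 50.8, 45.8, 49.5 and 49.96 CPM with 4OHT, and 37.8, 40.5, 35.1 and 41.7 CPM with 4OHT+3DA. The 3 groups did not overlap, with 4OHT highest. SESN2 rose with 4OHT (0.68, SE 0.083, adjusted p = 1.2e-06), was lower with 4OHT+3DA than with 4OHT (−0.34, SE 0.081, adjusted p = 0.0046) and stayed above DMSO (0.34, SE 0.083, adjusted p = 0.0019).

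SESN1, one of the genes with a half-site beside its start, was at 29.7, 24.1, 26.6 and 26.4 CPM with DMSO, 25.9, 30.8, 29.05 and 31.04 CPM with 4OHT, and 35.3, 35.2, 44.5 and 32.4 CPM with 4OHT+3DA. The DMSO and 4OHT libraries overlapped, and all 4OHT+3DA libraries lay above both. SESN1 was not called for 4OHT against DMSO (0.13, SE 0.11, adjusted p = 0.32) and was higher with 4OHT+3DA than with DMSO (0.47, SE 0.11, adjusted p = 0.0012). Its rise against 4OHT (0.33, SE 0.11, adjusted p = 0.026) was lost without library 21 (0.29, adjusted p = 0.085), 23 (0.33, adjusted p = 0.057) or 31 (0.23, adjusted p = 0.073). It was also lost with thinning to the smallest library (0.29, adjusted p = 0.051), with the GC correction (0.14, adjusted p = 0.20) and with that correction without library 31 (0.13, adjusted p = 0.31).

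SESN3, a sestrin known as a FOXO target as well, was at 6.07, 4.35, 5.63 and 7.18 CPM with DMSO, 2.41, 2.95, 2.07 and 3.40 CPM with 4OHT, and 3.54, 5.72, 2.42 and 3.17 CPM with 4OHT+3DA. The DMSO and 4OHT libraries did not overlap, and the 4OHT+3DA libraries overlapped both. It fell 2.13-fold with 4OHT (−1.09, SE 0.26, adjusted p = 0.0015). The value for 4OHT+3DA against 4OHT was 0.46 (SE 0.26, adjusted p = 0.20). The fall against DMSO (−0.63, SE 0.24, adjusted p = 0.036) was lost without library 17, 19, 20, 29, 31 or 32 (−0.65 to −0.47). Thinning, a threshold of 0.01 and the GC correction without library 31 also lost it.

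TIGAR, a phosphatase that lowers glycolytic flux and spares NADPH, was higher in both treated groups. It was at 58.2, 66.0, 57.8 and 57.9 CPM with DMSO, 130.5, 120.2, 118 and 122 CPM with 4OHT, and 112, 130.3, 174 and 111 CPM with 4OHT+3DA. All treated libraries lay above all DMSO libraries, and the 2 treated groups overlapped. TIGAR was 2.04-fold higher with 4OHT (log2 fold change 1.03, SE 0.11, adjusted p = 2.9e-07) and 2.198-fold higher with 4OHT+3DA than with DMSO (1.14, SE 0.11, adjusted p = 8.8e-08). Exons of the gene model AC008012.1 on the same strand cover 42.6% of the TIGAR exon length in GENCODE 29, so the authors' counting could have dropped or moved reads of TIGAR.

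FDXR, the mitochondrial ferredoxin reductase of iron-sulfur cluster and steroid synthesis, carries the GGGCTTGCCC half-site shown above. It was at 20.4, 21.97, 17.98 and 20.1 CPM with DMSO, 19.8, 20.7, 21.9 and 24.3 CPM with 4OHT, and 34.9, 26.6, 24.9 and 33.3 CPM with 4OHT+3DA. The DMSO and 4OHT libraries overlapped, and the 4OHT+3DA libraries lay above both. FDXR was called only in comparisons with the 4OHT+3DA group, at 0.46 against 4OHT (SE 0.12, adjusted p = 0.0072) and 0.57 against DMSO (SE 0.12, adjusted p = 0.00051). The value for 4OHT against DMSO was 0.11 (SE 0.12, adjusted p = 0.47). TP53I3, a quinone reductase-like p53 target, rose with 4OHT from 79.2 ± 5.74 to 109 ± 5.69 CPM (0.45, SE 0.081) and was at 95.1 ± 8.88 CPM with 4OHT+3DA. Against 4OHT that was −0.19 (SE 0.080, adjusted p = 0.083), or −0.23 (adjusted p = 0.044) without library 32.

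The fourth role is DNA repair and nucleotide supply, where XPC and DDB2, which recognise damage for nucleotide excision repair, passed the test in no comparison. XPC was at 42.6 ± 2.53, 38.9 ± 2.72 and 40.3 ± 4.15 CPM in the DMSO, 4OHT and 4OHT+3DA groups, and passed with library totals for 4OHT against DMSO (−0.28). DDB2, with the 2 adjoining half-sites, was at 41.5 ± 3.57, 39.9 ± 3.98 and 38.5 ± 3.48 CPM, with log2 fold changes of −0.06, −0.05 and −0.11 (SE 0.096 to 0.097). The antisense gene AC093495.1 covers 23.8% of the XPC exon length, so its reads may be counted with XPC or removed.

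POLH, the polymerase that copies past ultraviolet lesions, was at 49.0, 43.9, 49.1 and 41.2 CPM with DMSO, 42.7, 46.5, 46.2 and 48.2 CPM with 4OHT, and 36.1, 34.7, 32.1 and 35.1 CPM with 4OHT+3DA. The DMSO and 4OHT libraries overlapped and all 4OHT+3DA libraries lay below both. POLH was lower with 4OHT+3DA than with 4OHT (−0.41, SE 0.084, adjusted p = 0.0013) and than with DMSO (−0.41, SE 0.084, adjusted p = 0.00047), with a value of 0.01 for 4OHT against DMSO (SE 0.084, adjusted p = 0.96). A processed pseudogene, POLHP1, may share reads with POLH.

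RRM2B, the p53-induced small subunit of ribonucleotide reductase that supplies nucleotides outside S phase, was at 81.5, 71.7, 72.2 and 63.3 CPM with DMSO, 122, 119.7, 131 and 147 CPM with 4OHT, and 106, 140.3, 188 and 118 CPM with 4OHT+3DA. All treated libraries lay above all DMSO libraries. RRM2B rose with 4OHT (0.85, SE 0.13, adjusted p = 2.8e-05) and was above DMSO with 4OHT+3DA (0.94, SE 0.13, adjusted p = 9.2e-06). Between the treated groups the value was 0.09 (SE 0.13, adjusted p = 0.65), and −0.09 (adjusted p = 0.50) without library 31, its highest. With the GC correction and without library 31 it was called lower (−0.24, adjusted p = 0.029).

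The last role holds 9 genes of cell death, autophagy and survival, of which 4 rose and 2 fell with 4OHT. Of all genes tested, 26.5% rose and 25.5% fell there. PHLDA3, an inhibitor of the survival kinase AKT, was at 20.7, 18.7, 18.2 and 24.3 CPM with DMSO, 32.5, 36.5, 31.3 and 30.4 CPM with 4OHT, and 23.1, 21.8, 19.5 and 24.9 CPM with 4OHT+3DA. The 4OHT libraries lay above both other groups, which overlapped. PHLDA3 rose with 4OHT (0.67, SE 0.11, adjusted p = 5.1e-05) and was lower with 4OHT+3DA than with 4OHT (−0.55, SE 0.11, adjusted p = 0.0011), the largest fall of the 32 in that comparison. Its value against DMSO was 0.12 (SE 0.11, adjusted p = 0.38), and it passed with the GC correction (0.27, adjusted p = 0.018), also without library 31 (0.28, adjusted p = 0.023). The transcript AC096677.2, on the same strand, covers 19.1% of the PHLDA3 exon length.

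EDA2R, a TNF-family receptor that p53 induces, rose with 4OHT from 32.2 ± 2.501 to 42.6 ± 4.55 CPM (0.40, SE 0.11, adjusted p = 0.0038), a call lost with library totals (0.25, adjusted p = 0.073). It was at 35.4 ± 4.68 CPM with 4OHT+3DA, which was −0.27 against 4OHT (SE 0.11, adjusted p = 0.064) and passed without library 22 or 32 (−0.34 and −0.35). EDA2R also passed there with thinning to the smallest library (−0.33, adjusted p = 0.036). TRIAP1, a small survival factor that restrains apoptosis, rose from 69.4 ± 3.32 to 123 ± 6.65 CPM (0.82, SE 0.075, adjusted p = 2.0e-08) and was at 122 ± 9.41 CPM with 4OHT+3DA. A processed pseudogene, TRIAP1P1, may share reads with TRIAP1. SPATA18, which acts in mitochondrial quality control, rose from 17.9 ± 1.89 to 30.2 ± 2.04 CPM (0.75, SE 0.13) and was at 28.3 ± 5.72 CPM with 4OHT+3DA. For TRIAP1 and SPATA18 the values between the treated groups were −0.01 (SE 0.073) and −0.10 (SE 0.13).

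DRAM1, a lysosomal membrane protein that p53 uses to promote autophagy, fell at both steps. It was at 84.4, 81.2, 86.8 and 81.5 CPM with DMSO, 57.2, 57.9, 61.3 and 49.7 CPM with 4OHT, and 41.2, 46.7, 43.9 and 45.5 CPM with 4OHT+3DA. The 3 groups did not overlap. The log2 fold changes were −0.56 with 4OHT (SE 0.078, adjusted p = 6.0e-06), −0.35 for 4OHT+3DA against 4OHT (SE 0.079, adjusted p = 0.0029) and −0.91 for 4OHT+3DA against DMSO (SE 0.078, adjusted p = 1.2e-08). TP53I11, a p53-induced membrane protein, fell from 119 ± 8.36 to 73.8 ± 3.10 CPM with 4OHT (−0.68, SE 0.094) and was at 77.0 ± 11.9 CPM with 4OHT+3DA.

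AEN, a p53-induced exonuclease, PERP, a desmosomal protein linked to p53-dependent death, and RPS27L, a ribosomal protein paralogue, did not pass the test with 4OHT. AEN was at 117 ± 2.58, 119 ± 8.18 and 113 ± 13.6 CPM. PERP was at 360.2, 387, 420.3 and 380.2 CPM with DMSO, 358, 331, 366 and 348 CPM with 4OHT, and 327, 368, 546 and 330.3 CPM with 4OHT+3DA, where library 31 stood above all the rest. Its value for 4OHT+3DA against DMSO was 0.02 (SE 0.12), and −0.17 (SE 0.064, adjusted p = 0.024) without library 31. Without that library the value for 4OHT against DMSO, −0.14, also passed the test (adjusted p = 0.045). PERP passed there too with library totals (−0.30, adjusted p = 0.029) and when only those 8 libraries were fitted (−0.15, adjusted p = 0.017). RPS27L was at 448 ± 58.1, 412 ± 40.2 and 375 ± 55.5 CPM. Its fall with 4OHT+3DA against DMSO (−0.26, SE 0.10, adjusted p = 0.044) was lost without library 18, 20, 21, 22, 23, 30 or 32 (−0.26 to −0.18). RPS27L also lost this call with DESeq2 and at a threshold of 0.01. Against 4OHT its value (−0.13, adjusted p = 0.36) passed with the GC correction (−0.28, adjusted p = 0.045) but not without library 31 as well (−0.24, adjusted p = 0.11).

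Other genes of the pathway were read from a separate list of 40 p53 targets that are not among the 32, of which 38 were tested. With 4OHT 20 rose (52.6%, against 26.5% of all genes) and 5 fell (13.2%, against 25.5%), with a median log2 fold change of 0.31. GDF15, a stress-induced cytokine, rose from 42.0 ± 3.30 to 831 ± 25.8 CPM, and TNFRSF10D, a decoy receptor for the death ligand TRAIL, from 215 ± 17.5 to 1133 ± 45.1 CPM. TNFAIP8, an inhibitor of cell death, fell from 25.4 ± 2.95 to 10.0 ± 1.53 CPM, and the lysosomal fucosidase FUCA1 from 8.22 ± 1.17 to 4.49 ± 0.815 CPM. For 4OHT+3DA against 4OHT, edgeR called 0 of the 38 higher, against 14.4% of all genes. It called 13 lower (34.2%, against 12.4% of all genes), with a median of −0.15. At an unadjusted p under 0.05 the counts were 2 and 15, and DESeq2 and limma-voom each called 0 higher and 14 lower. FUCA1 fell further to 2.06 ± 0.766 CPM, and TNFRSF10C, another TRAIL decoy receptor, fell from 7.78 ± 1.053 to 4.20 ± 0.205 CPM. Against DMSO, 18 rose (47.4%, against 27.0% of all genes) and 6 fell (15.8%, against 24.6%) with 4OHT+3DA.

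**Figure D4:**
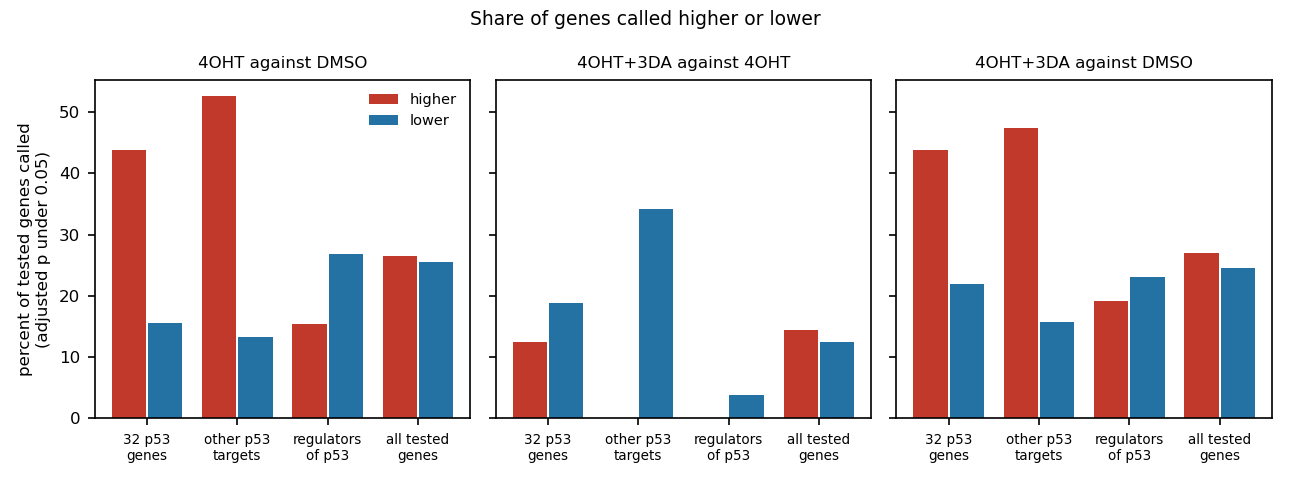
Percent of tested genes called higher (red) or lower (blue) in each comparison, for the 32 p53 genes, the 38 tested other p53 targets, the 26 tested regulators of p53 and all 13248 genes. With 4OHT the 32 genes show 43.8% higher against 26.5% of all genes. With 4OHT+3DA against 4OHT no bar marks a higher gene among the other targets, against 14.4% of all genes. In that comparison 34.2% of the other targets were lower, against 12.4% of all genes.

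Of 29 regulators of p53, 26 were tested, of which 4 rose and 7 fell with 4OHT. These are 15.4% higher and 26.9% lower, against 26.5% and 25.5% of all genes. CDKN2A, whose ARF product blocks MDM2 and whose reads also include p16, rose from 31.2 ± 0.636 to 72.2 ± 7.91 CPM (1.21, SE 0.092), and CHEK1, a checkpoint kinase that phosphorylates p53, fell from 34.3 ± 2.03 to 21.1 ± 2.64 CPM (−0.70, SE 0.10). With 4OHT+3DA against 4OHT, edgeR, DESeq2 and limma-voom each called 0 higher, against 14.4% of all genes in edgeR. Each called 1 lower (3.85%, against 12.4% of all genes in edgeR). At an unadjusted p under 0.05 in edgeR the counts were 2 and 2. The gene called lower was CDKN2A, at 48.3 ± 4.15 CPM (−0.58, SE 0.088, adjusted p = 8.2e-05). Against DMSO 5 rose (19.2%, against 27.0% of all genes) and 6 fell (23.1%, against 24.6%) with 4OHT+3DA. For cell cycle genes that p21 is known to silence through the DREAM complex, all 20 were tested and fell with 4OHT (median −2.85), 19 (95%, against 14.4% of all genes) rose with 4OHT+3DA against 4OHT (median 1.40), and all 20 were below DMSO with 4OHT+3DA (median −1.36). CDK1, the mitotic kinase, went from 89.5 ± 7.61 CPM with DMSO to 8.90 ± 2.54 CPM with 4OHT and 41.7 ± 13.0 CPM with 4OHT+3DA.

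Several of the 32 genes also answer to other regulators, and 3 lists of such genes were read beside them. Of all genes tested, 52.0% were called with 4OHT against DMSO (26.5% higher and 25.5% lower). With 4OHT+3DA against 4OHT 26.9% were called (14.4% higher and 12.4% lower). Of 18 immediate early genes, which growth signals induce as they do PLK3 and BTG2, 11 rose and 5 fell with 4OHT, and 3 rose and 7 fell with 4OHT+3DA against 4OHT, which is 88.9% and 55.6% called. EGR2 rose from 0.435 ± 0.234 to 11.01 ± 1.66 CPM with 4OHT, and IER3 fell from 179 ± 13.5 to 112 ± 11.3 CPM with 4OHT+3DA. Of 15 targets of ATF4, the amino acid stress factor that can also induce SESN2, 10 rose and 2 fell with 4OHT (80.0% called). With 4OHT+3DA against 4OHT, edgeR, DESeq2 and limma-voom each called 0 higher and 8 lower (53.3%), with 1 and 8 at an unadjusted p under 0.05 in edgeR. SLC7A11, the cystine importer, rose from 36.3 ± 6.10 to 118 ± 7.95 CPM with 4OHT, and DDIT3 fell from 45.0 ± 2.25 to 23.9 ± 1.90 CPM with 4OHT+3DA. Of 15 FOXO targets, the class to which SESN3 also belongs, 12 were tested, and 1 rose and 4 fell with 4OHT (41.7% called). With 4OHT+3DA against 4OHT, edgeR called 0 higher and 4 lower (33.3%), also at an unadjusted p under 0.05, DESeq2 0 and 4, and limma-voom 0 and 3. CDKN1B, the CDK inhibitor p27, fell from 10.1 ± 0.641 to 3.77 ± 0.240 CPM with 4OHT. The part of these regulators in the values of PLK3, BTG2, SESN2 and SESN3 was not tested.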

How the data were processed

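Full-length cDNA of 12 libraries was made by Smart-Seq2 and indexed with Nextera XT, per the labels' protocols. The values deposited are whole-number gene counts that the authors left without normalisation. The submitters' processing notes name CASAVA (1.8.2), TopHat2 (2.0.11), featureCounts (1.18.0) and the builds hg19 and GRCh37; strand setting, multiple matches and filters were not given in the sources used here. There are no molecular identifiers. Of 62069 identifiers 50127 had a symbol in the name table; those without held 0.488% of reads and stayed in.

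The test was edgeR (4.0.16, R 4.3.3): filterByExpr with a minimum count of 10, TMM factors, 1 quasi-likelihood model of 12 libraries in 3 groups (9 residual degrees of freedom), Benjamini-Hochberg adjustment over 13248 genes and a threshold of 0.05. The SE is the log2 fold change over the square root of F, with a prior count of 2 for log values. The members and lists were chosen with earlier results of these data known. Full values by library are given for MDM2, MDM4, PPM1D and genes called with a log2 fold change of at least 1 in size. Those of GADD45A, SESN1, SESN2, FDXR, POLH, RRM2B, PHLDA3, DRAM1, CCNG1 and PERP were added after they were seen. Of each other list, up to 2 called rises and 2 called falls were nameable. Not every gene fixed for reference is reported here. Alternatives were RLE factors, library totals, DESeq2 1.42.0, limma-voom (limma 3.58.1), no filter, a floor of 1 on mean CPM, fits of only 8 libraries, a threshold of 0.01, thinning to 9451160 reads, and each library left out. A GC correction (loess, span 0.4, GC known for 98% of genes), also without library 31, was added after the data were seen. It was fitted in each library to the deviation from the mean of all 12 libraries, so a GC trend shared by a whole group was removed too. The fit without library 31 kept the trends found with that library included. The steps were tested on simulated counts. For the 3 comparisons in the order of the report, 56.7%, 41.8% and 62.7% of 1.5-fold changes were recovered. For 2-fold changes the shares were 82.1%, 82.1% and 73.1%. A gene that did not pass the test is therefore not shown to be unchanged. Exon overlaps came from GENCODE 29 on GRCh38, not the authors' build.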

Additional observations from a re-analysis of the deposited data

Results flagged for a closer look

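In 4 of the 96 groups of 4 libraries (32 genes in 3 groups), 1 library lay so far from the other 3 that its gap passed Dixon's 95% critical value. Chance alone gives about 1 in 20 such groups, or 4.8 of 96. MDM4 was at 32.2 CPM in library 31 of the 4OHT+3DA group, against 24.1 to 24.8 CPM in the others. CCNG1 was at 332 CPM in library 19 of the DMSO group, against 278 to 284 CPM. TIGAR was at 66.0 CPM in library 18 of the DMSO group, against 57.8 to 58.2 CPM. TRIAP1 was at 133 CPM in library 22 of the 4OHT group, against 119.6 to 119.7 CPM. Each call of these genes held without the library concerned, and without library 19 CCNG1 was also called higher with 4OHT+3DA than with DMSO (0.40, edgeR adjusted p = 0.046). That value was 0.34 (edgeR adjusted p = 0.058) with all libraries and 0.10 (edgeR adjusted p = 0.32) without library 31. It also passed without library 29 or 32 and with no filter on low counts (0.38 to 0.47).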

How the results depend on the processing

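Each comparison was refitted under 23 alternatives, 12 of which left out 1 library. Of 50 calls of the 32 genes, 41 were kept in every alternative, 9 were lost in at least 1, and 0 changed sign. With library totals, 10 genes were lower with 4OHT than with DMSO (8 with only the 8 libraries compared), the medians of the 32 were −0.0174, 0.0283 and 0.10 for the 3 comparisons in the order of the report, PPM1D was at −0.10, TP53INP1 at −0.0131 and SESN1 at −0.0217 for 4OHT against DMSO, AHCY, the gene of the hydrolase that 3DA inhibits, at 0.0121 for 4OHT+3DA against 4OHT and PERP at −0.0785 for 4OHT+3DA against DMSO. With the GC correction, and with it without library 31, the median for 4OHT against DMSO was 0.24 and 0.24. For 4OHT+3DA against 4OHT the same pair of settings gave −0.11 and −0.18 for MDM2, −0.18 and −0.24 for RRM2B and 0.0305 and 0.0549 for AHCY. For 4OHT+3DA against DMSO they gave −0.0800 and −0.18 for PERP. Without library 31 the GC-corrected median was −0.12 for 4OHT+3DA against 4OHT, where 2 genes rose, and 0.12 for 4OHT+3DA against DMSO. PPM1D for 4OHT+3DA against DMSO was at 0.0544 with the GC correction, 0.0463 with thinning and 0.0344 with no filter, and at 0.0409 with thinning against 4OHT. PERP was at −0.00672 with limma-voom for 4OHT+3DA against DMSO. With an adjusted p under 0.01, 2 of the 32 genes rose with 4OHT+3DA against 4OHT, and 1944 genes in all were called, 1044 higher and 900 lower. The cause of these shifts was not tested.

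With 1 library left out at a time, PPM1D ranged from −0.0549 to 0.14 for 4OHT against DMSO, from −0.25 to 0.0430 for 4OHT+3DA against 4OHT and from −0.19 to 0.10 for 4OHT+3DA against DMSO. For 4OHT+3DA against 4OHT, MDM2 ranged from −0.0795 to 0.16, RRM2B from −0.0926 to 0.20 and AHCY from −0.0980 to 0.0200, and for 4OHT+3DA against DMSO PERP ranged from −0.17 to 0.10. No paired analysis was possible because the library numbers in the labels are not shared between groups. Low counts limit SESN3 most, with a mean of 2.71 CPM with 4OHT.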
